A study of Mus musculus with 7 samples.

Results

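The 8 genes described here handle fatty acids in the heart or answer to the receptors that sense them: Cd36, Fabp3, Pnpla2, Lipe, Pdk4, Ucp2, Ucp3 and Ppargc1a. They were chosen by name, and each was the row of the count table whose gene symbol equalled the name. All 8 were found among the 20343 genes of the table, and all 8 were among the 7667 genes with enough counts to be tested. Messenger RNA had been sequenced from the apical myocardium of 7 NSG-DR1 mice, an immunodeficient strain in which human T cells can persist, labelled NSG-DRB1*0101 for the human class II allele it carries. Of these, 4 control mice were untreated. The other 3, called transferred here, were given human CD4+ T cells, and their hearts were collected 6 weeks later. The series title names terminally differentiated CD4+ T cells and myocardial inflammaging, while the sample labels do not give the state of the injected cells. The labels give no age, cell dose or T cell donor, and no sham injection is described for the controls. Whether the mice of a group shared a litter or their T cells came from the same donor is not given, so p-values measure only the spread between these hearts.

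The adult heart draws most of its energy from fatty acids. CD36 carries them across the plasma membrane and FABP3 binds them in the cytosol, while the lipases encoded by Pnpla2 (adipose triglyceride lipase) and Lipe (hormone-sensitive lipase) release them from stored triglyceride. Fatty acids are ligands of the peroxisome proliferator-activated receptors (PPARs), which bind DNA with a retinoid X receptor partner and are helped by the coactivator PGC-1 alpha, the product of Ppargc1a. Pdk4 and Ucp3 are well-known PPAR-responsive genes. PDK4 shuts pyruvate out of the mitochondrion's oxidation by phosphorylating pyruvate dehydrogenase, and UCP2 and UCP3 are carriers of the mitochondrial inner membrane.

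Between 16402179 and 25190560 counts per heart fell on the analysed part of the genome, and 3 counts corresponded to 0.119 to 0.183 CPM of these plain totals. All other CPM are counts scaled to these totals and by TMM. The 8 genes took from 1.58% to 1.80% of these counts, and the least covered of them, Ucp3, had at least 367 counts in each heart. The title of transferred heart 2 ends in h45, and those of the other transferred hearts end in h1 and h7. What these endings mark is not said, so whether h45 was a single heart is not known. Transferred heart 2 stood apart: it had the highest or the lowest value of all 8 genes, the highest for Cd36, Lipe, Ucp2 and Ppargc1a and the lowest for Fabp3, Pnpla2, Pdk4 and Ucp3. Over all 7667 tested genes it was the extreme heart in 35.4%, and the other 6 hearts were extreme in 21.1% to 33.3%. Values without it are therefore given beside each of the 8 genes, and for most of the gene lists in a paragraph after them. The cardiac markers were high in every heart, with Tnni3 (cardiac troponin I) between 11271 and 14486 CPM and Tnnt2 (cardiac troponin T) between 17483 and 20432 CPM.

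None of the 8 genes passed the edgeR quasi-likelihood test at an adjusted p of 0.05, where 18 of 7667 genes (0.235%) did. Those calls were 0.130% of tested genes higher and 0.104% lower in transferred hearts. By DESeq2 1 of the 8, Ppargc1a, passed, beside 3.26% of tested genes, and by limma-voom 0 of the 8 and 0% of tested genes did. At an unadjusted edgeR p under 0.05 there were 2 of the 8, beside 12.4% of all tested genes. They were Ppargc1a, higher in transferred hearts as were 7.17% of tested genes, and Ucp3, lower as were 5.27%. Leaving out 1 heart moved this count of the 8 from 1, without control heart 2 or 4, to 4, without control heart 3 or transferred heart 1, and it was 3 without control heart 1 or transferred heart 3. Ppargc1a was among them each time. Over all tested genes the count was 658 of 7596 without control heart 2 and 773 of 7607 without control heart 4. It was 968 of 7572 without control heart 3 and 1140 of 7805 without transferred heart 1. Without control heart 1 it was 831 of 7590, and without transferred heart 3 it was 1046 of 7787. Without transferred heart 2 there were 2 of the 8, beside 706 of 7795. Ppargc1a and Ucp3 were also the genes whose groups did not overlap, 2 of 8 beside 11.2% of all tested genes (5.99% higher, 5.22% lower). The log2 fold changes of the 8 split evenly, 4 above and 4 below 0, with a median of -0.02 beside a median of -0.002 over all tested genes. In bulk tissue, fewer cells of a type and less RNA per cell cannot be told apart, and this holds for every difference given here.

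**Figure D1:**
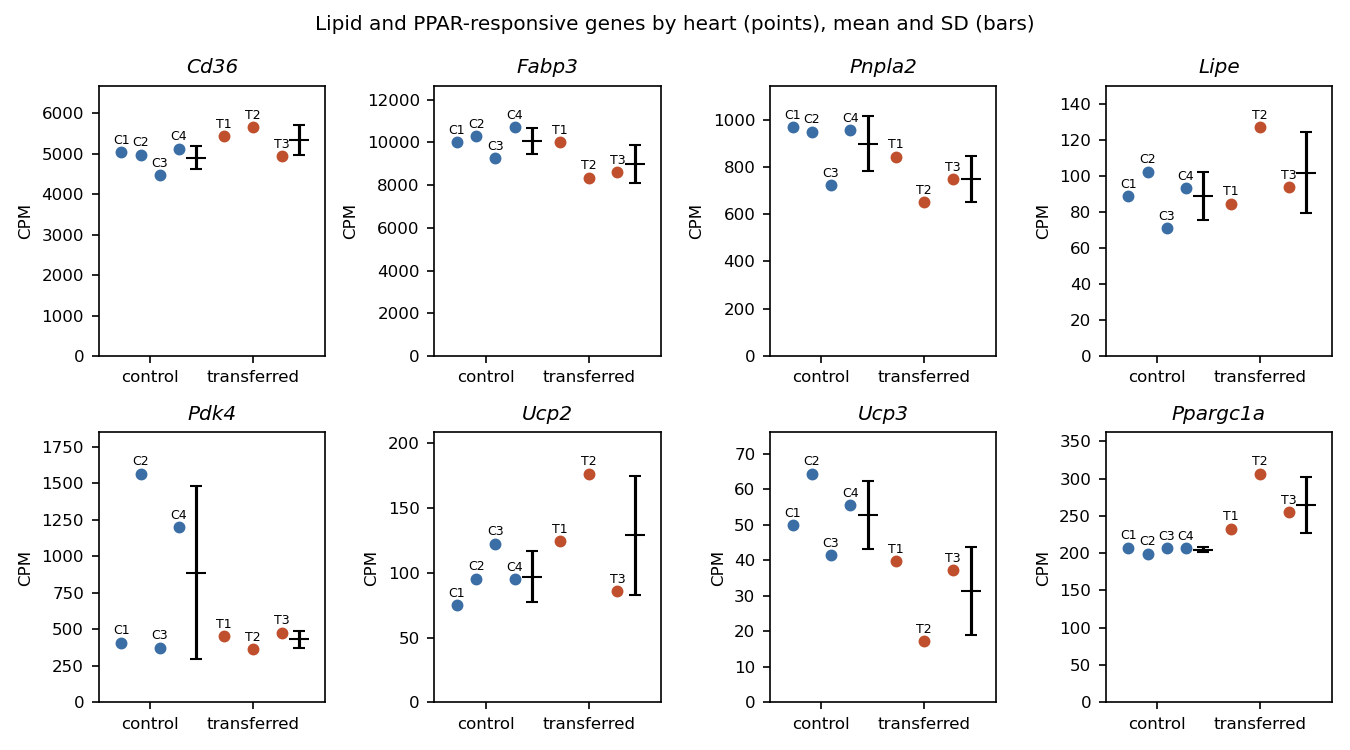
CPM of each of the 8 genes in the 4 control hearts (C1 to C4, blue) and the 3 transferred hearts (T1 to T3, red), each panel starting at 0, with the group mean and SD as black bars. Groups are separate in Ucp3 and Ppargc1a only, Pdk4 is high in 2 control hearts, and transferred heart 2 is the highest or lowest point in every panel.

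The uptake genes Fabp3 and Cd36 were the most abundant of the 8. Compared per kilobase of combined exon length, the order of the mean levels over the 7 hearts was Fabp3 at 14127 CPM per kilobase, Cd36 at 1256, Pnpla2 at 307, Pdk4 at 201, Ucp2 at 64.4, Lipe at 21.3, Ppargc1a at 18.6 and Ucp3 at 17.8. The ranges of Fabp3 and Cd36 did not overlap with each other or with the next gene in that order. Pnpla2 and Pdk4 overlapped, since Pdk4 was the higher of the pair in 1 heart. Ucp2 lay below the range of Pdk4 and above that of Lipe. Lipe, Ppargc1a and Ucp3 overlapped in their ranges, and Ucp3 was above Ppargc1a in 4 of 7 hearts, so the order of these 3 genes did not exceed their spread.

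Cd36, the fatty acid translocase (chromosome 5, 17781690 to 17888959, GRCm38), was at 5039, 4982, 4477 and 5132 CPM in control hearts 1 to 4. It was at 5439, 5660.4 and 4937 CPM in transferred hearts 1 to 3. Transferred hearts 1 and 2 lay above every control heart, and transferred heart 3 lay inside the control range. The group means were 4908 ± 294 CPM (SD, n = 4) and 5345 ± 370 CPM (SD, n = 3), and the fitted log2 fold change was 0.12 with a 95% interval from -0.08 to 0.33 (edgeR adjusted p = 0.644). Without transferred heart 2 it was 0.08 (edgeR adjusted p = 0.885). Cd36 is expressed by endothelial cells and macrophages as well as by cardiomyocytes, which the bulk values do not separate.

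Fabp3, the heart fatty acid-binding protein (chromosome 4, 130308738 to 130315463), was at 10000.2, 10305, 9258 and 10714 CPM in control hearts. In transferred hearts it was at 10019.7, 8345 and 8603 CPM. Here transferred hearts 2 and 3 lay below every control heart and transferred heart 1 lay among them. The means were 10069 ± 615 CPM (SD, n = 4) and 8989 ± 902 CPM (SD, n = 3), and the fitted log2 fold change was -0.16 with a 95% interval from -0.39 to 0.06 (edgeR adjusted p = 0.571), or -0.11 without transferred heart 2 (edgeR adjusted p = 0.859) and -0.25 without transferred heart 1 (edgeR unadjusted p = 0.0381, adjusted p = 0.311). Fabp3 alone took 0.861% to 1.04% of the counts analysed here in each heart. Its counts had a fractional part in 3 of 7 hearts, and how reads were divided is not given in the sources used here. Zcchc17, on the opposite strand, overlaps it with 1007 to 1744.5 counts, and whether counting used strand is likewise not given.

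The lipase genes of stored triglyceride breakdown had log2 fold changes of opposite sign, and neither passed the test. Pnpla2, whose product takes the first fatty acid off triglyceride (chromosome 7, 141455188 to 141460743), was at 968, 948, 723 and 955 CPM in control hearts and at 843, 651 and 749 CPM in transferred hearts. Control heart 3 was low, below transferred hearts 1 and 3, so the groups overlapped. The means were 899 ± 117 CPM (SD, n = 4) and 748 ± 96.3 CPM (SD, n = 3), and the fitted log2 fold change was -0.27 with a 95% interval from -0.55 to 0.02 (edgeR adjusted p = 0.433). Without control heart 3 the log2 fold change was -0.36 (edgeR adjusted p = 0.232), and without transferred heart 2 it was -0.17 (edgeR adjusted p = 0.782).

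Lipe, whose product acts mainly on diacylglycerol (chromosome 7, 25379527 to 25398486), was at 88.9, 102.5, 71.1 and 93.2 CPM in control hearts and at 84.6, 127 and 93.9 CPM in transferred hearts. Only transferred heart 2 exceeded the control range. The means were 88.9 ± 13.2 CPM (SD, n = 4) and 101.9 ± 22.4 CPM (SD, n = 3), and the fitted log2 fold change was 0.20 with a 95% interval from -0.15 to 0.55 (edgeR adjusted p = 0.669). The log2 fold change was 0.0067 without transferred heart 2, 0.10 without control heart 3 and 0.32 without transferred heart 1. A noncoding gene on the opposite strand, 4732471J01Rik, overlaps Lipe with 5 to 18 counts.

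Adipose tissue on the heart surface expresses Lipe, Pnpla2 and Cd36 at high levels, so its markers were read beside these genes. Plin1, the perilipin of fat cells, had 11 counts over all 7 hearts and Cidec, a fat cell lipid droplet protein, had 18, each at 0 in some hearts and at most at 0.235 and 0.506 CPM. Of the 15 adipocyte genes listed, 9 were in the table, and their summed level was 1251 to 1426 CPM in control hearts and 1132 to 1547 CPM in transferred hearts. Most of that sum was Fabp4, which endothelial cells also make. Of the 4 tested, 1 passed the test, Thrsp, a lipogenic gene named after its values were seen, which was lower in transferred hearts (log2 fold change -1.11, edgeR adjusted p = 0.0384). The brown adipocyte list had 3 of 9 genes in the table, at 2803 to 3175 CPM and 2274 to 2864 CPM, of which 0 of 3 passed by edgeR and 1, Cox7a1, by DESeq2. Cox7a1 and Cox8b, named after their values were seen, made up most of it and are also expressed in heart muscle.

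Pdk4, the inhibitory kinase of pyruvate dehydrogenase (chromosome 6, 5483351 to 5496278), showed the largest spread of the group, and it lay inside the control group. Control hearts 1 to 4 were at 409, 1566, 375 and 1202 CPM. Transferred hearts were at 455, 366 and 477 CPM. Control hearts 2 and 4 were far above the other 5 hearts, while control hearts 1 and 3 lay close to the transferred hearts. The means were 888 ± 592 CPM (SD, n = 4) and 433 ± 58.9 CPM (SD, n = 3), and the fitted log2 fold change was -1.04 with a 95% interval from -2.42 to 0.35 (edgeR adjusted p = 0.548). On the log2 scale the SD among control hearts was 1.06, above that of 99.1% of tested genes, and among transferred hearts it was 0.20, near the median of 0.18. Leaving out transferred heart 2 gave -0.93 (edgeR adjusted p = 0.792), leaving out control heart 2 gave -0.61 (edgeR adjusted p = 0.839) and leaving out control heart 3 gave -1.29 (edgeR adjusted p = 0.368).

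The RefSeq window before the Pdk4 start (chr6:5496279-5496528, minus strand, GRCm38.p6) is shown because Pdk4 varied most. Capitals in this and the other windows mark, on either strand, the nuclear receptor half-site AGGTCA, the GC box GGGCGG and the CCAAT box CCAAT. A single AGGTCA does not by itself mark a PPAR site.

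Pdk4: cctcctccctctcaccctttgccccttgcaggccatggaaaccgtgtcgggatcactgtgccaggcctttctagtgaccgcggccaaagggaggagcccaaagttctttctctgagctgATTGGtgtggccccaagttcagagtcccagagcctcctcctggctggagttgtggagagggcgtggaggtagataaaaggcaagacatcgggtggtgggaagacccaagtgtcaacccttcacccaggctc

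The window held 1 match, a CCAAT box on the reverse strand 131 to 127 bases before the start, a motif found in 33.8% of the 32851 RefSeq windows of this length. No AGGTCA was in these letters, which says nothing of sites elsewhere.

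Of the 7 other tested genes of pyruvate entry, 0 passed by edgeR at an adjusted p of 0.05 and 1, Pdhx, had an unadjusted p under 0.05, and their median log2 fold change was 0.03. The most abundant were Ldhb and Ldha, subunits of lactate dehydrogenase, Mpc2, a subunit of the mitochondrial pyruvate carrier, and Pdk1, another pyruvate dehydrogenase kinase. Pdk1 was at 859 CPM in control and 876 CPM in transferred hearts, with a 95% interval of the log2 fold change from -0.19 to 0.25 (edgeR adjusted p = 0.939). Ldha was at 2108 and 2479 CPM, a difference of 0.23 in fitted log2 level (edgeR adjusted p = 0.445), Ldhb had -0.05, and Mpc2, lower in all 3 transferred hearts than in any control heart, had -0.14 (edgeR adjusted p = 0.548). The smallest p-value in the list belonged to Pdhx, named after its values were seen, which binds the E3 enzyme to the pyruvate dehydrogenase complex. It was at 471, 504, 468 and 527 CPM in control hearts and at 422, 415 and 375 CPM in transferred hearts, all lower, and passed by DESeq2 as the 1 gene of the list to do so, with a difference of -0.28 in fitted log2 level (edgeR adjusted p = 0.178).

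Ucp3 and Ucp2 lie next to each other on chromosome 7 in the same orientation, Ucp3 at 100472991 to 100486432 and Ucp2 at 100493337 to 100499629, with 6904 bases between them. Their log2 fold changes had opposite signs, and neither passed the adjusted test. Ucp3, the muscle-type carrier, was at 49.9, 64.4, 41.5 and 55.4 CPM in control hearts. It was at 39.8, 17.3 and 37.1 CPM in transferred hearts, each below the lowest control heart. Transferred hearts 1 and 3 were within a few CPM of control heart 3, while transferred heart 2 was far lower. The means were 52.8 ± 9.63 CPM (SD, n = 4) and 31.4 ± 12.3 CPM (SD, n = 3), and the fitted log2 fold change was -0.75 with a 95% interval from -1.39 to -0.11 (edgeR unadjusted p = 0.0277, adjusted p = 0.325). Without transferred heart 2 it was -0.45 (edgeR adjusted p = 0.472). The unadjusted p was above 0.05 without control heart 2 (-0.64, edgeR unadjusted p = 0.0674) and without control heart 4 (-0.73, edgeR unadjusted p = 0.0623), and also with every gene of at least 1 count in the fit (-0.75, edgeR unadjusted p = 0.0661).

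Ucp2, which is expressed widely and also in leukocytes, was at 75.0, 95.4, 122 and 95.1 CPM in control hearts and at 124, 177 and 85.7 CPM in transferred hearts. Transferred hearts 1 and 2 lay above the control range, transferred heart 1 barely so, and transferred heart 3 lay inside it. The means were 97.0 ± 19.5 CPM (SD, n = 4) and 128.8 ± 45.6 CPM (SD, n = 3), and the fitted log2 fold change was 0.41 with a 95% interval from -0.15 to 0.97 (edgeR adjusted p = 0.559). Without transferred heart 2 it was 0.11 (edgeR adjusted p = 0.922), and without transferred heart 3 it was 0.63 (edgeR adjusted p = 0.185).

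The ratio of Ucp2 to Ucp3 counts within a heart needs no scaling between libraries. It was 1.501, 1.48, 2.95 and 1.72 in control hearts and 3.12, 10.2 and 2.31 in transferred hearts. Transferred hearts 1 and 2 exceeded every control heart, and transferred heart 3 lay below control heart 3. The mean log2 ratio was 0.87 ± 0.47 (SD, n = 4) and 2.07 ± 1.14 (SD, n = 3), a difference of 1.19 (two-sided exact permutation p = 0.0857, where 35 splits allow no p below 0.0286). Without transferred heart 2 the difference was 0.55 (two-sided exact permutation p = 0.333, smallest possible 0.0667). The ratio was chosen with earlier results for Ucp3 known.

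**Figure D2:**
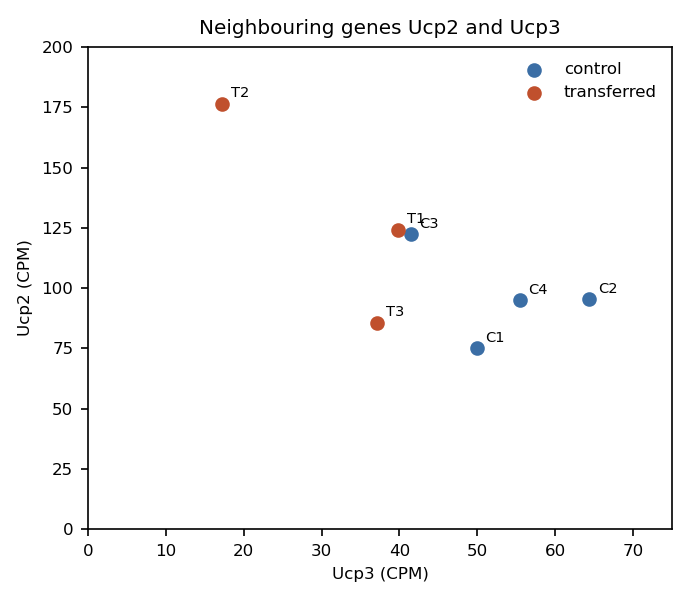
CPM of Ucp2 (vertical axis) against CPM of the neighbouring gene Ucp3 (horizontal axis), 1 point per heart, control hearts C1 to C4 in blue and transferred hearts T1 to T3 in red. Transferred heart 2 sits alone at 17.3 CPM of Ucp3 and 177 CPM of Ucp2, and transferred heart 1 sits close to control heart 3.

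Their upstream windows are printed as the neighbouring pair whose fold changes had opposite signs, Ucp3 at chr7:100472741-100472990 and Ucp2 at chr7:100493108-100493357, both plus strand, GRCm38.p6, from RefSeq. Positions are counted from the RefSeq starts, and that of Ucp2, at 100493358, lies 21 bases inside the gene's span in the count table, so the end of its window is within that span.

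Ucp3: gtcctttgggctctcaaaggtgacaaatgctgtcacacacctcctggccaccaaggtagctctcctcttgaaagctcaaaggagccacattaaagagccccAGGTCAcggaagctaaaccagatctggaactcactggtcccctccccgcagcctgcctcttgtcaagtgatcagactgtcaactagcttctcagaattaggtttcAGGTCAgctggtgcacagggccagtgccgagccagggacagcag

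Ucp2: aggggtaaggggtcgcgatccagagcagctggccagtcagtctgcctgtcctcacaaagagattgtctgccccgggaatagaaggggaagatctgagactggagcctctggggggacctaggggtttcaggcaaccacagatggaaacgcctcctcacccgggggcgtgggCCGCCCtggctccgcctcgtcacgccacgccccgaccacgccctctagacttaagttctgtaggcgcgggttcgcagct

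The Ucp3 window held AGGTCA in 2 places, 149 to 144 and 44 to 39 bases before the start, and no GC box or CCAAT box. The Ucp2 window held 1 GC box on the reverse strand, 79 to 74 bases before the start, and none of the other motifs. AGGTCA was present in 14.0% of all windows and in those of 2 of the 8 genes, Ucp3 and Cd36. The GC box was present in 32.7% of all windows, in those of Cd36, Pnpla2 and Ucp2 and in 1 of the 2 windows of Lipe. The RefSeq start of Cd36 lies 53063 bases inside the gene's span in the count table, and those of Lipe lie 8374 and 2499 bases inside. The perfect direct repeat of AGGTCA with a 1-base spacer, searched with no mismatch, was in 0.0335% of windows and in 0 of the 8 genes. PPAR response elements are often imperfect repeats, which this search does not find.

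Leukocyte genes were read beside Ucp2. All 15 tested genes of the macrophage and leukocyte list had a positive log2 fold change and an unadjusted p under 0.05, and the median was 0.95. Of them, 3 passed by edgeR (C1qb, Mrc1 and Coro1a, named after their values were seen), 14 by DESeq2 and 0 by limma-voom. Their summed level was 545 to 800.2 CPM in control hearts and 937 to 1438 CPM in transferred hearts, and among the transferred hearts it ranked as Ucp2 did, with heart 2 highest and heart 3 lowest. Among control hearts it did not, since control heart 3 had the lowest sum and the highest Ucp2. Ptprc (CD45) was at 8.17 to 13.6 CPM in control and 18.8 to 28.2 CPM in transferred hearts, and C1qa, a complement gene of tissue macrophages, at 107 to 164 CPM and 195 to 295 CPM. The neutrophil list, 7 of 7 tested genes with a positive log2 fold change, 0 past the edgeR test, 6 at an unadjusted p under 0.05 and 5 past the test of DESeq2, summed to 14.3 to 39.8 CPM in control hearts and to 24.4, 321 and 56.2 CPM in transferred hearts 1 to 3. The T cell list had 7 of 11 genes in the table, at 30.0 to 38.5 CPM and 28.5 to 36.1 CPM, with 0 of 3 tested past the edgeR test and 1, Cd247, lower at an unadjusted p under 0.05 (named after its values were seen). Most of that sum was Cd28, also named after its values were seen, at 21.9 to 31.4 CPM. These are mouse genes counted on a mouse build, while the injected cells were human, so the list does not measure the injected cells. The part of leukocytes in the Ucp2 values was not tested.

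The cardiomyocyte list, 14 of 20 genes in the table, summed to 148576 to 174263 CPM in control and 147099 to 178940 CPM in transferred hearts, with 0 of 14 past the edgeR test, 0 at an unadjusted p under 0.05 and a median log2 fold change of -0.04. The skeletal muscle list, 7 of 13 genes in the table, summed to 34.8 to 42.7 CPM and 40.6 to 57.7 CPM with 0 of 6 past the edgeR test and 0 at an unadjusted p under 0.05, and its marker Tnnt3 stayed at or below 0.688 CPM in all hearts. The fibroblast list summed to 4923 to 6599 CPM and 4521 to 7238 CPM, with 0 of 7 past the edgeR test and 0 at an unadjusted p under 0.05. The endothelial list had 14 tested genes, a median log2 fold change of 0.01 and a sum of 3579 to 4402 CPM in control and 3347 to 3744 CPM in transferred hearts. Its members differed in both directions: Aqp1, a water channel (-1.01), and Aplnr, the apelin receptor (-0.91), passed as lower by edgeR (adjusted p = 0.0384 for each). At an unadjusted p under 0.05 Tie1 was also lower (-0.28) and Vwf (1.17) and Emcn (0.26) were higher, these 5 named after their values were seen, and the defining marker Kdr was at 554 to 829 CPM and 541 to 715 CPM (-0.12, edgeR adjusted p = 0.799).

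Ppargc1a, the gene of the coactivator PGC-1 alpha (chromosome 5, 51454249 to 52115853), had the smallest p-value of the 8, ranked 149 of 7667. Control hearts were at 207, 199, 206 and 206 CPM, a range so narrow that the control SD on the log2 scale, 0.03, was below that of all but 1.16% of tested genes. Transferred hearts were at 233, 307 and 255 CPM, each above every control heart. The means were 205 ± 3.75 CPM (SD, n = 4) and 265 ± 37.8 CPM (SD, n = 3), and the fitted log2 fold change was 0.37 with a 95% interval from 0.16 to 0.58 (edgeR unadjusted p = 0.00277, adjusted p = 0.143). Without transferred heart 2 it was 0.25 (edgeR adjusted p = 0.381). DESeq2 gave the same size, 0.37, with an adjusted p of 0.0203, and over all 18 alternatives the adjusted p ran from 0.0203 to 0.381. The RefSeq window of Ppargc1a, at a start inside the gene's annotated span (chr5:51567726-51567975, minus strand, GRCm38.p6), is shown since this gene separated the groups.

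Ppargc1a: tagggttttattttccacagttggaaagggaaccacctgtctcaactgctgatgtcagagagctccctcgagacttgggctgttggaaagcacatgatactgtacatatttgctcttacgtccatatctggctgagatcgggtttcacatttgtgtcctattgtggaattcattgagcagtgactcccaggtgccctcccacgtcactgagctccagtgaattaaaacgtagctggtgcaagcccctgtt

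None of the 4 motifs was in these letters. The counts do not tell which start of Ppargc1a was used.

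**Figure D3:**
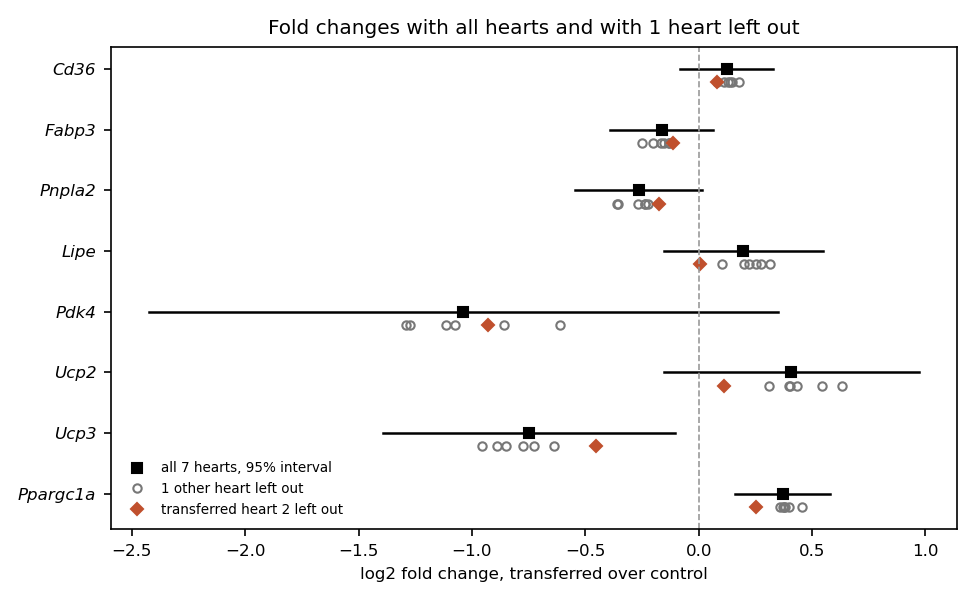
Log2 fold change of transferred over control hearts for each of the 8 genes (black squares, with 95% intervals from the edgeR fit), with the values when 1 heart was left out in grey and those without transferred heart 2 as red diamonds. Intervals of Ucp3 and Ppargc1a exclude 0 before adjustment, all 8 genes keep their sign, and the value without transferred heart 2 lies nearer to 0 than that of all hearts for all 8 genes.

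The partners of PGC-1 alpha were read from a list of 34 regulators, of which 17 were in the table and tested. Of the 16 besides Ppargc1a, 0 passed by edgeR at an adjusted p of 0.05 and 1, Mef2a, had an unadjusted p under 0.05, 7 had a positive and 9 a negative log2 fold change, and the median was -0.01. Pparg, the PPAR of fat cells, was at 24.8 to 31.8 CPM in control and 22.4 to 34.0 CPM in transferred hearts (log2 fold change -0.02, edgeR adjusted p = 0.973), and Rxrg, a retinoid X receptor, was at 181 to 208 CPM and 173 to 230 CPM (-0.008, edgeR adjusted p = 0.985). Rxra, another retinoid X receptor named after its values were seen, was at 190 to 237 CPM and 182 to 211 CPM (-0.17, edgeR adjusted p = 0.536). Ppara and Ppard lie on chromosomes not analysed here. The 4 most abundant were Perm1, a muscle regulator linked to PGC-1, with a log2 fold change of -0.13, Mef2a with 0.21, Prkaa2, the catalytic alpha subunit of AMP-activated kinase, with 0.01, and Mef2d with -0.15. Mef2a, a muscle transcription factor, was at 465 to 501 CPM in control hearts and 538 to 580 CPM in transferred hearts, all higher (edgeR adjusted p = 0.243), and, besides Ppargc1a, was the 1 gene of this list that passed by DESeq2.

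PPAR-responsive genes outside the group gave 0 of 22 past an adjusted p of 0.05 by edgeR and 3 lower at an unadjusted p under 0.05 (Cpt2, Etfdh and Aqp7, named after their values were seen), with 7 above and 15 below 0 and a median log2 fold change of -0.06. The 4 most abundant are enzymes of fatty acid oxidation. Hadhb was at 5290 and 5078 CPM in control and transferred hearts, Hadha at 3168 and 3041, Acadm at 3051 and 2960 and Acadl at 2997 and 2881, with log2 fold changes of -0.06, -0.06, -0.04 and -0.06 and edgeR adjusted p from 0.832 to 0.901. These were close to 0 beside the -0.75 of Ucp3 and -1.04 of Pdk4, whose standard errors were 0.28 and 0.57.

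In the uptake list 0 of 13 other tested genes passed by edgeR and 0 had an unadjusted p under 0.05, with a median of -0.03. Fabp4, the binding protein of endothelial and fat cells, was at 1199 CPM in control and 1204 CPM in transferred hearts, and Cav1, the caveolin of plasma membrane pits, at 823 and 856 CPM. Dbi, the acyl-CoA-binding protein, had a log2 fold change of -0.06, and Zdhhc5, which attaches palmitate to CD36, had -0.03. In the lipolysis and droplet list 0 of 12 passed by edgeR, while 1 was higher (G0s2) and 3 were lower (Dgat2, Agpat2 and Aqp7) at an unadjusted p under 0.05, of which G0s2, Agpat2 and Aqp7 were named after their values were seen, with a median of -0.03. Mgll, the lipase that follows Lipe, had a difference of -0.18 in fitted log2 level (edgeR adjusted p = 0.568), Fitm2, a droplet formation protein, -0.02, and Prkacb, a catalytic subunit of protein kinase A, 0.01. Dgat2, which makes triglyceride, was at 585, 563, 433 and 599.8 CPM in control hearts and at 455, 410 and 412 CPM in transferred hearts, with control heart 3 again low, and a difference of -0.36 in fitted log2 level (edgeR adjusted p = 0.243).

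Among the carriers of the inner membrane 0 of 12 other tested genes passed by edgeR, 2 were lower at an unadjusted p under 0.05 (Slc25a15 and Slc25a51), and 8 had a negative log2 fold change, with a median of -0.12. In 4 of the 12 every transferred heart was below every control heart, beside the 5.22% of all tested genes given above. Slc25a13, a glutamate-aspartate carrier, had -0.13 and Slc25a51, the mitochondrial NAD carrier, -0.18 (edgeR adjusted p = 0.547 and 0.313), and the others were Slc25a15 and Slc25a44, named after their values were seen. Slc25a12 and Slc25a34, also among the most abundant, had -0.04 and -0.14. Over the 6 metabolic lists together 79 genes were tested besides the 8, 0 passed, and 10 (12.7%) had an unadjusted p under 0.05, beside 12.4% of all tested genes. By direction, 2 were higher (2.53%, beside 7.17%) and 8 lower (10.1%, beside 5.27%). Groups did not overlap in 1 higher gene and 8 lower genes, and 60.8% of the 79 had a log2 fold change below 0, beside 50.3% of all tested genes. By DESeq2, Mef2a and Pdhx were the genes of these lists that passed, and by limma-voom 0 did.

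**Figure D4:**
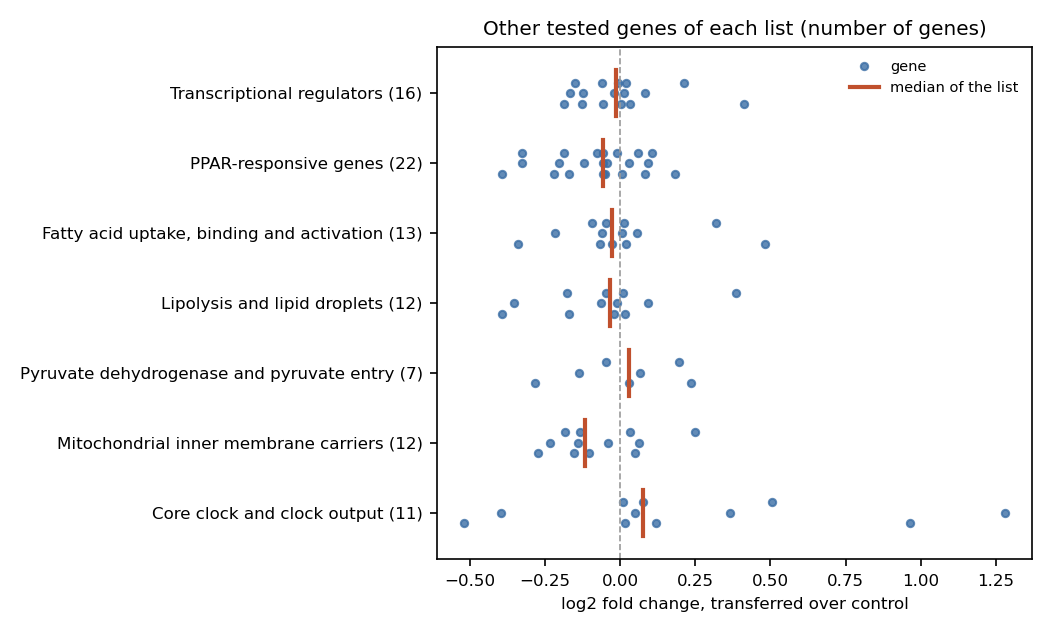
Log2 fold change of transferred over control hearts for the tested genes of each of the 7 pathway lists other than the 8 genes themselves (blue points, vertical offsets only separate them), with the median of each list as a red line and the number of genes in brackets. Medians of these 7 lists lie between -0.12 (inner membrane carriers) and 0.07 (clock genes), and the widest spread among the 7 is that of the clock genes.

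Clock genes were read because Pdk4, Ucp3 and other fuel genes follow the time of day, and the labels give no hour of collection. Of 11 tested, 0 passed the edgeR test, and 1 was higher and 1 lower at an unadjusted p under 0.05. Of the most abundant, Bhlhe40, a clock-linked repressor, was at 74.6 to 266 CPM in control and 205 to 228 CPM in transferred hearts, and Clock and Cry2 had log2 fold changes of 0.05 and 0.01. Dbp, an output gene of the clock named after its values were seen, was at 19.8, 19.3, 95.8 and 16.7 CPM in control hearts and at 47.5, 178 and 52.7 CPM in transferred hearts. Arntl (BMAL1), also named after its values were seen, ran the other way, at 84.8, 79.3, 55.6 and 79.1 CPM and at 65.7, 33.8 and 70.7 CPM. Control heart 3 and transferred heart 2 were thus the hearts with the highest Dbp and the lowest Arntl of their groups. In both of these hearts Fabp3, Pnpla2, Pdk4 and Ucp3 were the lowest and Ucp2 the highest of the group. Cd36 and Lipe were the lowest of their group in control heart 3 and the highest in transferred heart 2, and Ppargc1a was the highest in transferred heart 2 but neither highest nor lowest in control heart 3. The part of the clock in these values was not tested.

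**Figure D5:**
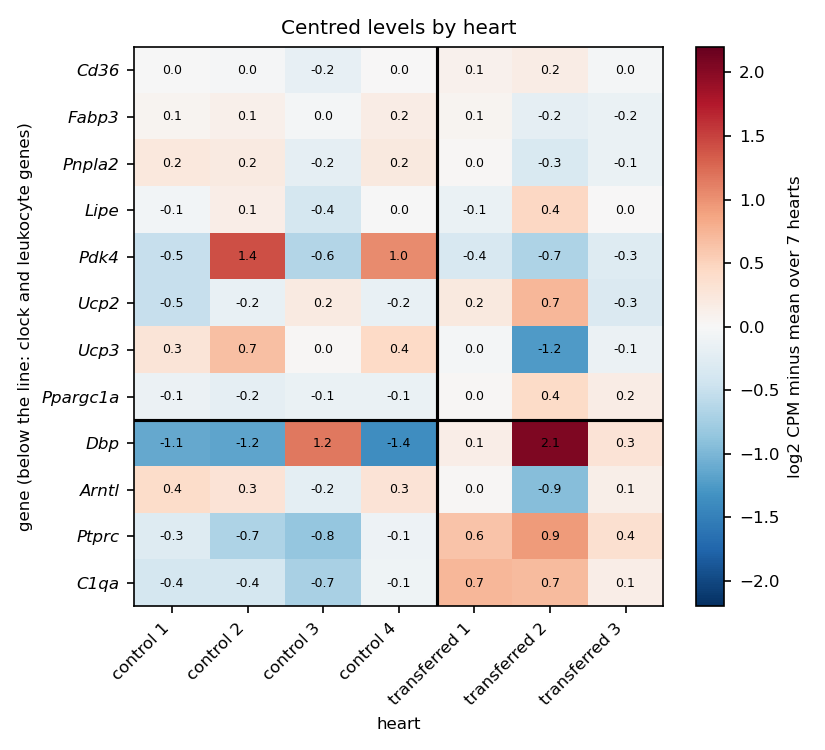
Log2 CPM of each gene minus its mean over the 7 hearts (colour and printed value), with the 8 genes above the horizontal line, the clock genes Dbp and Arntl and the leukocyte genes Ptprc and C1qa below it, and control hearts to the left of the vertical line. Transferred heart 2 has the lowest Ucp3 and the highest Ucp2, Ppargc1a, Lipe and Dbp, and Pdk4 is high in control hearts 2 and 4 alone.

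Control heart 1 and transferred heart 1 came from mice whose names begin with letters, and the other 5 mice have names that begin with numbers. What this marks is not said. With the form as a covariate the log2 fold change was 0.38 for Ppargc1a and -0.88 for Pdk4. Within the 5 hearts with numbers alone the difference in mean log2 CPM was 0.45 for Ppargc1a, -1.06 for Ucp3, -1.09 for Pdk4, 0.25 for Ucp2 and -0.31 for Pnpla2. Between the 2 hearts with a prefix it was 0.17 for Ppargc1a, -0.32 for Ucp3, 0.73 for Ucp2 and -0.20 for Pnpla2, each in the same direction, with no replicate and no test. Cd36 had 0.12 and 0.11 in the same order. Pdk4 had 0.15 between the prefixed pair, Lipe had -0.07 against 0.31 among the others, and Fabp3 had 0.0028 against -0.25, so these 3 differences did not hold in both.

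Without transferred heart 2, an alternative chosen after seeing the data, 0 genes of any list passed the edgeR test. Over all 7795 genes tested in that fit, 706 had an unadjusted p under 0.05, the background for the counts below. Of the 79 genes of the metabolic lists 2 were then higher and 6 lower at an unadjusted p under 0.05, and 49 had a log2 fold change below 0. Mef2a was at 0.18 in place of 0.21 (edgeR adjusted p = 0.551), Pdhx at -0.30 in place of -0.28 (edgeR adjusted p = 0.373) and Dgat2 at -0.33 in place of -0.36 (edgeR adjusted p = 0.524). Mgll was at -0.31 in place of -0.18 (edgeR unadjusted p = 0.0139, adjusted p = 0.401), Perm1 at -0.02 in place of -0.13 and Mef2d at -0.06 in place of -0.15. The uptake list had 1 gene lower at an unadjusted p under 0.05, 10 of 13 below 0 and a median of -0.10 in place of -0.03. Medians changed sign in the lipolysis list (0.02 in place of -0.03), the pyruvate list (-0.02 in place of 0.03), the clock list (-0.03 in place of 0.07), the cardiomyocyte list (0.01 in place of -0.04) and the endothelial list (-0.0045 in place of 0.01). The endothelial list had 1 gene higher and 4 lower at an unadjusted p under 0.05, and the carrier list had 1 lower, 10 of 12 below 0 and a median of -0.10. By the same threshold 1 PPAR-responsive gene was lower and 1 regulator higher, with medians of -0.03 and -0.01. The skeletal muscle median was -0.07 in place of -0.30, and the skeletal muscle and fibroblast lists each had 1 gene higher at an unadjusted p under 0.05. The leukocyte list had 15 of 15 genes above 0, 14 of them at an unadjusted p under 0.05, and a median of 0.85. The adipocyte median was -0.18 in place of -0.0071 and the brown adipocyte median -0.21 in place of -0.08, Kdr was at -0.03 in place of -0.12, Dbi at -0.10 in place of -0.06 and Hadhb at -0.03 in place of -0.06. The neutrophil list went from a median of 1.86 to 0.87 with 6 of 7 genes above 0, Dbp went from 1.28 to 0.39, Arntl from -0.40 to -0.13 and Vwf from 1.17 to 0.67.

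The 3 genes of the group that ranged most over the 7 hearts were Pdk4, Ucp3 and Ucp2, with ranges of 2.10, 1.89 and 1.23 on the log2 CPM scale. Likeness to them was measured over the 7 hearts as the root mean square difference of log2 CPM after centring each gene on its mean, across 7666 other tested genes. Nearest to Ucp3 were Gpr162 at 0.11, Auts2 at 0.18 and Igsf21 at 0.19, where the median gene was at 0.60. Nearest to Ucp2 were Gpr35 at 0.11, Gm52787 at 0.14 and Cyp7b1 at 0.15, with the median at 0.43. Pdk4 had no close match: Ntng1 at 0.37 and Fam205c and Abhd1 at 0.41 were the nearest, with the median at 0.82. Of the 8 genes, the one nearest to Ucp3 was Pnpla2, at 0.40, and Ucp2 was the farthest, at 0.90. These are descriptions over 7 hearts that share the same libraries, without a test.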

How the data were processed

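The authors deposited a table of estimated counts per gene, not normalized, for 7 hearts (4 control, 3 transferred). The submitters' processing notes name bcl2fastq 2.20.0.422, cutadapt 2.5, STAR 2.7.2b, featureCounts 1.6.4, DESeq2 1.22.2 and build GRCm38.p6, without their settings. The table analysed here held chromosomes 1 to 7 and part of 8 in 20343 complete rows, and 1 unfinished row was left out. Column totals are therefore not library depths. Fractional parts occurred in 4.63% of values, and counts were rounded. Groups came from the treatment label, and heart numbers only name the hearts.

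Genes were filtered with filterByExpr, scaled by TMM and tested across 7667 genes with the quasi-likelihood test of edgeR 4.0.16 (robust, R 4.3.3), with Benjamini-Hochberg adjustment at 0.05. CPM are TMM-scaled. Standard errors and 95% intervals came from the F statistic. The procedure was tested on simulated data. Alternatives were other scalings and filters, DESeq2 1.42.0, limma-voom (limma 3.58.1), no robust estimation, unrounded counts, the identifier form and left-out hearts. The 8 genes, the lists and the ratio were chosen with earlier results of these data known. Genes named from a pathway list were its 4 most abundant tested genes and any past the threshold, of which 1 is not reported here. Marker lists are given by their sums and preset defining markers. Pparg and Rxrg were named as receptor genes outside these rules. Other names are marked in the text as chosen after their values were seen. Promoter windows are the 250 bases before the RefSeq starts of GRCm38.p6, and all 8 genes matched by symbol.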

Additional observations from a re-analysis of the deposited data

Results flagged for a closer look

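Each of the 8 genes and the log2 ratio of Ucp2 to Ucp3, 9 results in all, was checked for 1 control heart far from the other 3. Chance marks about 1 in 20 such groups. The log2 CPM of Pnpla2 was 9.50 in control heart 3, where its 723 CPM stood against 948 to 968 CPM in the other control hearts. The log2 CPM of Ppargc1a was 7.64 in control heart 2, where its 199 CPM stood against 206 to 207 CPM, a gap of a few CPM that was marked only because the other 3 hearts were nearly equal.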

How the results depend on the processing

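All 8 genes kept the sign of their log2 fold change in all 18 alternatives. The number of the 8 past the threshold, 0, became 1 with DESeq2 (Ppargc1a, log2 fold change 0.37, adjusted p = 0.0203) and stayed at 0 in the other 17. The number of all tested genes past the threshold, 18, was 35 with column totals only (26 higher and 9 lower, beside 10 and 8), 81 with every gene of at least 1 count, 250 with DESeq2 and 0 each with limma-voom, the identifier form as a covariate and only the hearts identified by numbers alone (907, 973 and 1054 at an unadjusted p under 0.05). Leaving out 1 heart gave from 0 to 140, with 0 without control heart 1, 2 or 4 or transferred heart 2, 1 without control heart 3 and 140 without transferred heart 3. The cause was not tested. Leaving out 1 heart moved the log2 ratio of Ucp2 to Ucp3 between 0.55 and 1.62. No paired analysis was made, because the labels give no pairing between control and transferred mice. With 3 transferred hearts the 95% intervals of Pdk4 and Ucp2 allow differences from -2.42 to 0.35 and from -0.15 to 0.97 on the log2 scale. Among the list genes, and without transferred heart 2 (chosen after seeing the data), the log2 fold change changed sign for Hadha (0.046), Fabp4 (-0.16), Cav1 (-0.18), Zdhhc5 (0.031), Fitm2 (0.0195), Pdk1 (-0.066) and Cry2 (-0.090), none of which had passed. Thrsp, Aqp1, Aplnr, C1qb, Mrc1 and Coro1a kept their sign and no longer passed the edgeR test (adjusted p from 0.101 to 0.153), and the cause was not tested.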
